A study of Mus musculus with 4 samples.

Results

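The RB and E2F family genes are 10 members, Rb1, Rbl1, Rbl2, E2f1 to E2f5, Tfdp1 and Tfdp2, chosen by gene symbol from the 24421 rows of the count matrix. All 10 had a row, and all 10 passed the filter on low counts, as did 9150 genes in all. They were measured in B16F10 cells, a mouse melanoma line of the C57BL/6 strain, in 4 bulk MARS-seq libraries that count transcripts at their 3′ ends. Every library came from cells transduced with a lentiviral vector and selected with puromycin. In shControl (2 libraries) the vector was an empty one by the study's list of reagents, and in shLmna (2 libraries) it carried a short hairpin RNA against exon 8 of Lmna, which encodes the A-type lamins A and C. An effect of expressing any hairpin is thus part of the difference, the cells are 1 transduced line per group as far as stated, and separate cultures behind the replicate libraries are not stated. The p-values given here therefore measure spread between libraries, which may be technical. In bulk RNA a smaller number of cells that express a gene cannot be told apart from less RNA per cell.

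RB, encoded by Rb1, and its relatives p107 (Rbl1) and p130 (Rbl2) are the pocket proteins. In their underphosphorylated form they bind E2F transcription factors and hold genes of DNA replication and cell division in a repressed state until cyclin-dependent kinases release them. E2F1, E2F2 and E2F3 are the members that activate transcription and bind mainly RB, while E2F4 and E2F5 act mostly as repressors together with p107 and p130. Each of these E2F proteins binds DNA as a dimer with a DP protein, DP1 (Tfdp1) or DP2 (Tfdp2). A-type lamins, together with LAP2alpha, a product of Tmpo, are known to bind RB and to protect it from degradation, a step that acts on the protein and not on the transcript.

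Promoters of the family are shown first, because several members are themselves known targets of E2F. The RefSeq windows (GRCm38.p6) run from 250 bases before to 50 bases after an annotated start, and 11 such windows were found for 7 of the 10 members, not for Rb1, E2f4 and E2f5. They were searched on both strands for TTCCCGC and, as further forms of the last 7 letters of the E2F consensus, for TTCGCGC as well as TTGCCGC together with TTGGCGC, and for TTTGAA, the cell cycle homology region (CHR) element bound by MuvB complexes. No word of one motif overlapped a word of the other. The windows below belong to Rbl1 (chr2:157204485-157204784, minus strand) and Tfdp1 (chr8:13338501-13338800, plus strand), whose transcripts were lower in shLmna, to E2f3 (chr13:29986014-29986313, minus strand), whose transcript did not pass the test, and to E2f8 (chr7:48881547-48881846, minus strand), an atypical E2F outside the 10 members whose transcript was lower. Capitals mark the words found, and each sequence is written 5′ to 3′ on the strand of its gene.
Rbl1: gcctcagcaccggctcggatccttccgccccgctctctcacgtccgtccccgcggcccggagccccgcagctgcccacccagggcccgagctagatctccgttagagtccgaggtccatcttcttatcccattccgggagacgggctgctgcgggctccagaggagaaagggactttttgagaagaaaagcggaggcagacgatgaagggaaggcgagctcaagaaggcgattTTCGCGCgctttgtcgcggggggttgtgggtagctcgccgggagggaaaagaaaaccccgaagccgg
Tfdp1: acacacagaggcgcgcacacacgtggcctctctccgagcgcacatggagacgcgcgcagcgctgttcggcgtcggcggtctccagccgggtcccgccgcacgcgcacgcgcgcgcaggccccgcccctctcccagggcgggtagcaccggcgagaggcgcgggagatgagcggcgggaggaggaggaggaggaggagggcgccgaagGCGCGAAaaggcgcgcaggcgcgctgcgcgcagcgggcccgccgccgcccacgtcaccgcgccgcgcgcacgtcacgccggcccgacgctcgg
E2f3: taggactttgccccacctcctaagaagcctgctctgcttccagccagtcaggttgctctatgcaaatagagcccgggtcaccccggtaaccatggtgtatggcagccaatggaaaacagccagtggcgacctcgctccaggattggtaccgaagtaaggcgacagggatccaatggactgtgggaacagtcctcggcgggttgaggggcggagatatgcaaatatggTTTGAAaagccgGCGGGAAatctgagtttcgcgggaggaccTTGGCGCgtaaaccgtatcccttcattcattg
E2f8: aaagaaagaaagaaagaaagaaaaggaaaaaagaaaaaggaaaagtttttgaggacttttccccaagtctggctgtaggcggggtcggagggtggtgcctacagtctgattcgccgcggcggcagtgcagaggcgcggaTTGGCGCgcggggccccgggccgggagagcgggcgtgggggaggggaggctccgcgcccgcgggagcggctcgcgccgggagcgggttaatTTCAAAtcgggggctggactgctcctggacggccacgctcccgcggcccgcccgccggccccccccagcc

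The Rbl1 window holds TTCGCGC from base -17, counted from the start, and the Tfdp1 window holds the same word on the opposite strand from base -43. E2f3 has TTCCCGC on the opposite strand from base -11 and TTGGCGC from base 19, with a CHR word at -23. E2f8 has TTGGCGC from base -111 and a CHR word on the opposite strand at -20. In all, 4 of the 7 members with a window (Rbl1, E2f2, E2f3 and Tfdp1) held an E2F word in at least 1 window, as did 2936 of 27025 genes in the promoter table. By windows this was 5 of 11 for the members and 9.57% of 32851 in the table, and 17.9% of the latter held a CHR word. Both Tfdp1 windows overlap and share the same TTCGCGC site, at base -43 in one and -96 in the other, so it is counted in each. Members with such a word were thus found both among the lower transcripts and among those that did not pass. The E2f1 window, which held neither word, is built on a start 466 bases downstream of the gene start in GENCODE, and both Tfdp2 windows, also with neither word, on starts 62430 and 62973 bases downstream, so these windows do not cover the gene starts. A word is a match of letters and not a binding site.

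As a check of the labels, Lmna was examined first. Its level was 875 and 719 CPM (counts per 1000000 counts of a library, after TMM scaling) in shControl and 131 in each shLmna library, a log2 fold change of -2.61 ± 0.142 (SE), with an adjusted p of 7.93e-06 from edgeR. Library totals ran from 2494880 to 3808843 counts. Melanocyte lineage markers summed to between 20818 and 25596 CPM, with Dct between 4608 and 5067 CPM, although Tyr had 1 to 7 counts. Of 8 tested lineage markers, 3 were higher in shLmna, namely Mlana (0.51 on the log2 scale, edgeR adjusted p 0.00510), Pmel (0.41, adjusted p 0.0258) and Gpr143 (0.51, adjusted p 0.0448), and Sox10 was lower (-0.89, adjusted p 0.00161). At an edgeR adjusted p under 0.05, 5.48% of all tested genes were higher and 9.74% lower. Marker sums for fibroblasts, leukocytes, endothelial cells and keratinocytes ranged from 0 to 18.0 CPM, with Ptprc, Krt5 and Krt14 at 0. Most of the leukocyte sum was Cd68, with 53 and 54 counts in shControl against 27 and 44 in shLmna. The fibroblast marker Col1a2 had 16 and 13 counts in shControl against 4 and 7 in shLmna.

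The question addressed was whether transcripts of the RB and E2F family differ when lamin A/C is reduced. Of the 10 members, 4 had an edgeR adjusted p under 0.05, and all 4 (Rb1, Rbl1, Tfdp1 and E2f5) were lower in shLmna. By the same rule 15.2% of all tested genes differed, 9.74% lower and 5.48% higher. The other 6 members, Rbl2, E2f1, E2f2, E2f3, E2f4 and Tfdp2, did not pass. Rb1 entered the test through its shControl counts alone, with 0 in both shLmna libraries, so it could pass only as lower. Rb1, Rbl1 and Tfdp1 also exceeded the study's limits of a log2 fold change over 1 in size and a mean normalised count over 5, all 3 of them downward. Of all tested genes 7.64% exceeded these limits, 5.88% downward and 1.76% upward. The shLmna libraries lay below both shControl libraries for 5 members and above both for 0. Such separation is common with 2 libraries per group and was found for 60.1% of all tested genes, 30.6% with shLmna lower and 29.5% with shLmna higher. The median log2 fold change was -0.13 over the members and -0.00107 over all tested genes. The count of 4 depended on single libraries. Without shLmna 2 only Tfdp1 passed, and without shControl 2 only Rbl1 and Tfdp1 did, with Rb1 then below the filter on low counts. E2f5 was not past the test without shLmna 1, which left 3.

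**Figure D1:**
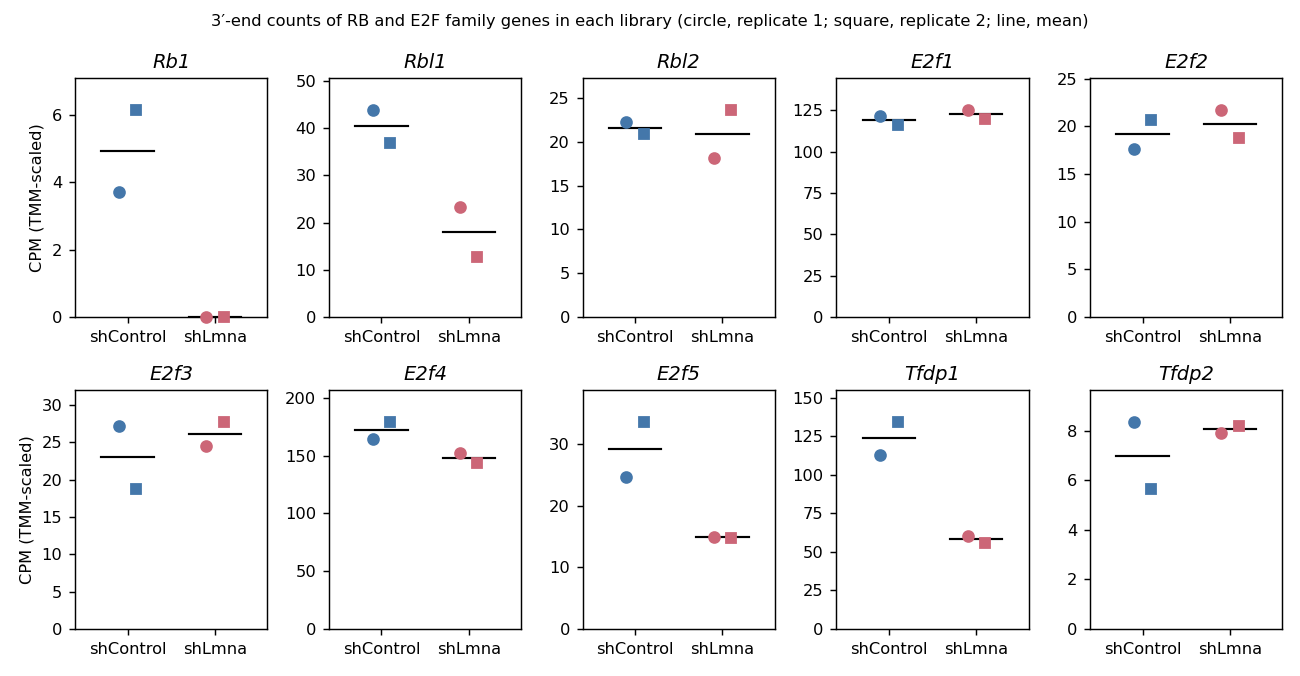
Level of each RB and E2F family gene in CPM (TMM-scaled, linear axis from 0) in every library, blue for shControl and red for shLmna, with circles for replicate 1, squares for replicate 2 and a line at the mean of 2. Rb1, Rbl1, E2f4, E2f5 and Tfdp1 have both shLmna points below both shControl points, and the groups overlap in the other 5 panels.

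The panels of levels by library show that the members with separate groups differ in size of gap. On the axis of each panel, which is scaled to its own gene, Rb1 and Tfdp1 have wide gaps, while the E2f4 groups lie close together. In counts the Rb1 gap is small, with 0 and 0 in shLmna against 12 and 23 in shControl. The order of levels in shControl, in counts at 3′ ends, which do not scale with transcript length, ran from E2f4 (172 CPM) through Tfdp1 (124 CPM) and E2f1 (119 CPM) to Rbl1 (40.5 CPM), E2f5 (29.3 CPM), E2f3 (23.0 CPM), Rbl2 (21.6 CPM), E2f2 (19.1 CPM), Tfdp2 (6.99 CPM) and Rb1 (4.94 CPM). The values of Tfdp1 overlap those of E2f1, those of E2f5, Rbl2 and E2f2 each overlap those of E2f3, and those of Tfdp2 overlap those of Rb1, so the order of these neighbours is not set by the data. In shLmna Tfdp1 (58.2 CPM) stood below E2f1 (123 CPM) with no overlap.

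Among the pocket proteins, Rb1 (ENSMUSG00000022105, chromosome 14, 73183673 to 73325822, minus strand, GRCm38) had 12 and 23 counts in shControl, whereas both shLmna libraries held 0. In CPM this was 3.72 and 6.16 against 0 and 0. Both shLmna values are under the floor of 3 counts, which averages 1 CPM over the group, so the level was at least 4.93-fold lower (edgeR adjusted p 0.00500). The floor covers counting error in shLmna only, and only where a library held 0 counts. The intervals of shares of counts cover counting error only. Those of log2 fold changes come from the edgeR fit and include spread between libraries. The control level itself rested on 35 counts, and without shLmna 2 the adjusted p was 0.0697. On the opposite strand Rcbtb2 overlaps the counted window, with 1, 4, 0 and 0 counts, and whether the counting used strand is not stated.

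Rbl1 (p107, ENSMUSG00000027641, chromosome 2, 157145893 to 157204534, minus strand) is the pocket protein gene whose transcription is itself driven by E2F in cycling cells. It had 44.0 and 36.9 CPM in shControl against 23.3 and 12.8 CPM in shLmna. The groups do not overlap, although the shLmna libraries differ from each other. The log2 fold change was -1.20 (SE 0.275, edgeR adjusted p 0.0173), and it was -0.78 with an adjusted p of 0.161 without shLmna 2. With an offset for GC content it was -0.84 (adjusted p 0.105), and 45.6% of tested genes of like GC content were lower.

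Rbl2 (p130, ENSMUSG00000031666, chromosome 8, 91070057 to 91123844, plus strand), which is most abundant as a protein in resting cells, had 22.3 and 20.9 CPM in shControl against 18.2 and 23.7 CPM in shLmna. The shControl values fall between the shLmna values. Its log2 fold change was -0.03, with a 95% interval of -0.54 to 0.48 and an edgeR adjusted p of 0.952. The interval leaves room for differences of up to about 0.688-fold or 1.40-fold.

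**Figure D2:**
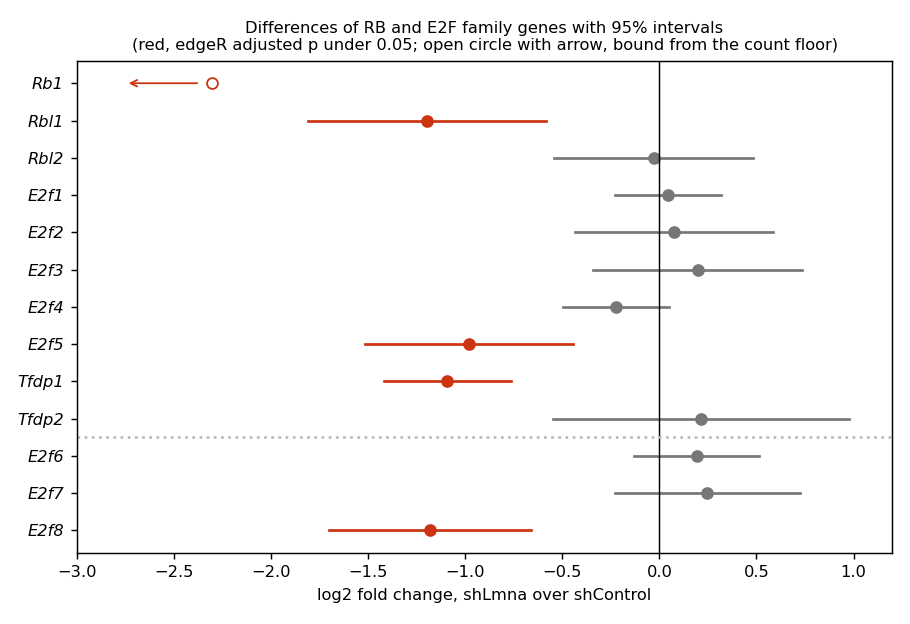
Log2 fold change of shLmna over shControl (x axis) for each member and, below the dotted line, for the E2F genes outside the 10 members, with 95% intervals from the edgeR fit on 2 libraries per group. Red marks an adjusted p under 0.05, and Rb1 is drawn at its bound with an arrow. Rbl1, E2f5, Tfdp1 and E2f8 have intervals wholly below 0.

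In the plot of differences with their intervals, the activating E2F genes lie around 0. E2f1 (ENSMUSG00000027490, chromosome 2, 154559407 to 154569892), whose product activates S phase genes, had 121 and 116 CPM in shControl against 125 and 120 CPM in shLmna. The 4 values overlap within 10 CPM of each other. The log2 fold change was 0.04 (95% interval -0.23 to 0.32, edgeR adjusted p 0.848), the narrowest interval among the activators. Of the 31-base stretches in its counted end, 8.45% also occur in other genes, so part of its counts could belong elsewhere. E2f2 (chromosome 4, 136172394 to 136196057) had 17.7 and 20.6 against 21.8 and 18.8 CPM. Its log2 fold change was 0.07 (95% interval -0.44 to 0.58, adjusted p 0.867). E2f3 (chromosome 13, 29906575 to 29986063), the activator that is present through most of the cycle, had 27.3 and 18.7 against 24.5 and 27.8 CPM. It had a log2 fold change of 0.20 (95% interval -0.34 to 0.73, adjusted p 0.630). For neither gene were the groups separate.

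Of the repressor E2F genes, E2f5 passed the test and E2f4 did not. E2f4 (ENSMUSG00000014859, chromosome 8, 105297663 to 105305370, plus strand), the E2F with the highest level here, had 165 and 180 CPM in shControl against 152 and 143 CPM in shLmna. The shLmna values lay below both controls, but the log2 fold change of -0.22 (SE 0.121, 95% interval -0.49 to 0.05) did not pass the test (edgeR adjusted p 0.253). E2f5 (ENSMUSG00000027552, chromosome 3, 14578641 to 14606309, plus strand), a binding partner of p130, had 24.8 and 33.7 CPM in shControl against 15.0 and 14.7 CPM in shLmna. Here too the groups were separate, with the spread almost wholly in shControl. The log2 fold change was -0.98 (SE 0.239, edgeR adjusted p 0.0227), just under the limit of 1 in size. With DESeq2, the study's tool, the adjusted p was 0.149, and over all alternatives it ranged from 0.000558 to 0.149. 1810022K09Rik lies on the opposite strand of its counted window, with 7 and 5 counts in shControl against 8 and 18 in shLmna.

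Of the DP genes, 1 passed the test and 1 did not. Tfdp1 (ENSMUSG00000038482, chromosome 8, 13338751 to 13378448, plus strand), the main partner of the E2F proteins, had 113 and 135 CPM in shControl against 60.5 and 55.9 CPM in shLmna. The shLmna libraries agreed closely and both lay far below the controls. The log2 fold change was -1.09 (SE 0.146, edgeR adjusted p 0.000958), or 0.469-fold with a 95% interval of 0.374 to 0.588. It passed the test under every alternative that kept all libraries, and its log2 fold change ran from -1.21 to -0.47 over all alternatives. Passing in these fits is no measure of stability, as given below. Tfdp2 (ENSMUSG00000032411, chromosome 9, 96196275 to 96323646, plus strand) had 8.36 and 5.62 CPM in shControl against 7.91 and 8.17 CPM in shLmna. Its groups overlapped, with a log2 fold change of 0.21 and a wide 95% interval of -0.55 to 0.98 (adjusted p 0.721).

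The balance within each class was then described as shares of counts. Rb1 made up 5.31% (95% exact Clopper-Pearson interval 2.77% to 9.09%) and 9.62% (6.20% to 14.1%) of the pocket protein counts in shControl. It made up 0 of 105 and 0 of 134 in shLmna, with upper limits of 3.45% and 2.72% by the same method. Rbl2 made up 31.9% and 32.6% of these counts in shControl and 43.8% and 64.9% in shLmna, with the shLmna libraries well apart from each other. Within E2F1 to E2F5, E2f4 held between 44.2% and 48.7% of the counts and E2f1 between 31.5% and 37.0%. E2f5 held 6.96% and 9.14% in shControl against 4.43% and 4.53% in shLmna. Tfdp2 held 6.91% and 4.01% of the DP counts in shControl and 11.6% and 12.8% in shLmna. These shares are descriptions without a test, since an exact permutation test of 2 against 2 libraries cannot give a two-sided p below 0.333.

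**Figure D3:**
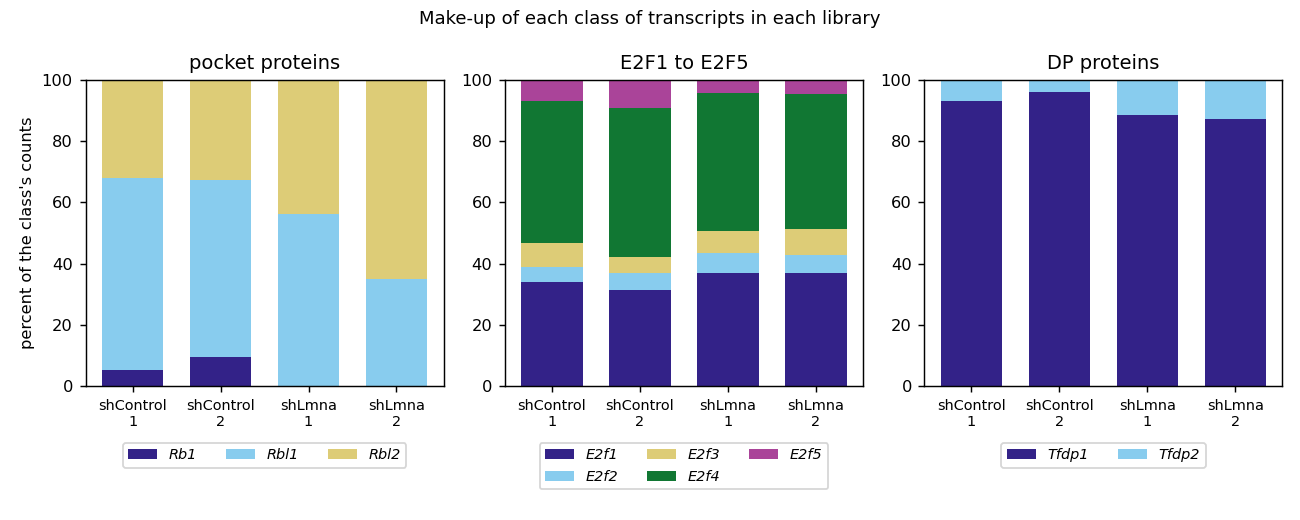
Percent of the counts of each class (pocket proteins, E2F1 to E2F5, DP proteins) taken by each of its genes in the 4 libraries, as stacked bars. Rb1 is absent from both shLmna bars, and E2f4 holds between 44.2% and 48.7% of the E2F class in all 4 libraries.

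The stacked shares do not show the size of the classes, which also differed. Summed levels of the pocket protein genes were 70.0 and 64.0 CPM in shControl against 41.5 and 36.5 CPM in shLmna, and those of the DP genes were 121 and 140 CPM against 68.4 and 64.0 CPM. The E2F1 to E2F5 sum was 356 and 369 CPM against 339 and 324 CPM. There were thus 2.94 and 2.63 E2F transcripts per DP transcript in shControl against 4.95 and 5.07 in shLmna. For the activators E2f1, E2f2 and E2f3 per pocket protein transcript, the values were 2.38 and 2.43 in shControl against 4.13 and 4.56 in shLmna. These are ratios of 3′-end counts, and their denominators are the sums that hold Tfdp1 and that hold Rbl1 and Rb1. The counted ends of Tfdp1, Rbl1 and Rb1 are poor in G and C, as given below. The part of GC content in these ratios was not tested.

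The counted ends of the lower members were poor in G and C. GC content of the last 1000 transcript bases was 32.5% for Rbl1, 34.9% for Rb1, 35.5% for Tfdp1 and 38.8% for E2f5, against a median of 46.9% over tested genes. The members that did not pass ranged from 38.2% (Rbl2) and 38.5% (E2f3) to 53.7% (E2f1). Genes of like GC content were often lower too. Of the tested genes within 2 percentage points of Rbl1, 45.6% were lower with an adjusted p under 0.05, and the share was 28.5% around Rb1, 28.0% around Tfdp1 and 14.1% around E2f5. After each library was offset for GC content, Tfdp1 stood at -0.93 on the log2 scale (edgeR adjusted p 0.00200) and E2f5 at -0.99 (adjusted p 0.0195). Rb1 had an adjusted p of 0.00583. Rbl1 no longer passed, as given above. The part of GC content in these differences was not tested beyond this offset.

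**Figure D4:**
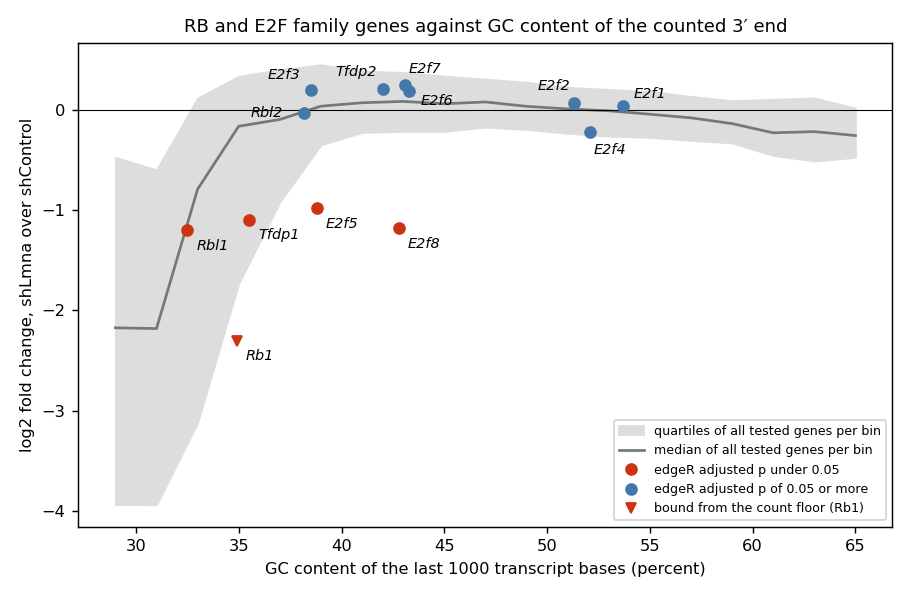
Log2 fold change of shLmna over shControl against GC content of the counted 3′ end for the members and E2f6 to E2f8 (red, adjusted p under 0.05; triangle, bound for Rb1). The grey line and band give the median and quartiles of all tested genes in bins of 2 percentage points. Rbl1 sits on the falling left part of the line. Tfdp1 also lies inside the band, whose lower quartile is -1.73 between 34% and 36% GC. E2f5 and E2f8 lie below the band at their GC content, as does Rb1, drawn at its bound.

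The plot against GC content also holds the other E2F genes. E2F6, E2F7 and E2F8 repress transcription without binding pocket proteins, and E2f8 alone of the 3 passed the test. E2f8 (ENSMUSG00000046179, chromosome 7, 48866429 to 48881596, minus strand) had 63.8 and 70.7 CPM in shControl against 20.96 and 37.1 CPM in shLmna. Its groups were separate, and its log2 fold change was -1.18 (SE 0.232, edgeR adjusted p 0.00833), or -0.86 with an adjusted p of 0.0530 without shLmna 1. The GC content of its counted end was 42.8%, where 6.05% of tested genes within 2 percentage points were lower. E2f7, its closest relative, had 22.6 and 20.1 CPM against 26.5 and 24.2 CPM, a log2 fold change of 0.25 (adjusted p 0.477). E2f6 had a log2 fold change of 0.19 (adjusted p 0.408).

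Genes around the family were grouped by role in lists. Upstream of RB, cyclin D with CDK4 or CDK6 and cyclin E with CDK2 phosphorylate it, and CDK inhibitors hold them back. Of 15 such genes 10 were tested, 1 was lower and 1 higher, close to the 9.74% and 5.48% of all tested genes. Cdkn1a (p21), an inhibitor of CDK2, had 302 and 301 CPM in shControl against 189 and 205 CPM in shLmna, a log2 fold change of -0.61 ± 0.120 (SE), with an adjusted p of 0.00853 from edgeR. Ccnd1 (cyclin D1) had 241 and 227 CPM against 345 and 307 CPM, a log2 fold change of 0.48 (adjusted p 0.0300). Ccnd2 and Ccnd3 had log2 fold changes of -0.34 and 0.27 (adjusted p 0.0874 and 0.191), and Cdk4 of -0.12 (0.596). Cdk6 had at most 2 counts in a library. The INK4 genes Cdkn2a and Cdkn2b had 0 counts in every library, which allows up to 3 counts in each. With shLmna 1 or shLmna 2 left out, 0 genes of this list passed, against 1 without shControl 2 and 5 without shControl 1.

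RB and its relatives repress through corepressors, and 12 of 13 genes of such proteins were tested. Lower levels passed the test for 2 and higher levels for 0, where 9.74% and 5.48% of all tested genes did. Arid4b, which bridges RB and the SIN3 histone deacetylase complex, had 18 and 32 counts in shControl against 2 and 1 in shLmna (edgeR adjusted p 0.00389). With both shLmna libraries set to the floor of 3 counts it was 7.06-fold lower. This value is not a lower limit, since counts above 0 were seen. Smarca2 (BRM), a chromatin remodelling ATPase, had 14 and 30 against 1 and 7 counts, a log2 fold change of -2.27 (adjusted p 0.0364). Arid4b and Smarca2 both entered the test through their shControl counts alone, so they could pass only as lower. Their counted ends had GC contents of 30.3% and 39.7%, and of all tested genes between 30% and 32% GC, 61.7% were lower, against 11.3% between 38% and 40%. The median of the list was -0.21. Without shLmna 2 the count of passing genes was 0, and it was 1 without shLmna 1 or without shControl 2. Hdac1 had a log2 fold change of 0.07 (adjusted p 0.838).

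The MuvB core joins p107 or p130 with E2F4 in the DREAM repressor and later joins B-MYB (Mybl2) and FOXM1 to activate mitotic genes. All 8 genes of this list were tested, and 1 was lower and 0 higher, near the share of 9.74% lower among all tested genes. Lin54, the DNA-binding subunit of MuvB, had 44 and 54 counts in shControl against 0 and 3 in shLmna (edgeR adjusted p 0.000551). Lin54 entered the test through its shControl counts alone, so it could pass only as lower. With both shLmna libraries set to the floor of 3 counts it was 14.0-fold lower, which is not a lower limit. Its counted end had a GC content of 31.4%, in the same range where 61.7% of tested genes were lower. Mybl2 had a log2 fold change of -0.93 (adjusted p 0.0736) and Foxm1 of 0.39 (adjusted p 0.0696), and neither passed. Without shControl 1 or without shControl 2 the count of passing genes was 2.

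Of 7 genes for modifiers of RB and for its lamin partner, 6 were tested, and 1 was higher and 0 lower, beside 5.48% and 9.74% of all tested genes. Skp2, the F-box protein that targets p27 and p130 for degradation, had 29.4 and 40.7 CPM in shControl against 55.0 and 60.8 CPM in shLmna, a log2 fold change of 0.72 ± 0.190 (SE), with an adjusted p of 0.0308 from edgeR. The count of passing genes was 0 with DESeq2 and without either shLmna library, 2 without shControl 2 and 3 without shControl 1. Tmpo, named here after its values were seen, had 48.9 and 168 CPM against 271 and 208 CPM. Its groups were separate but shControl was spread widely, and the log2 fold change of 1.13 did not pass (adjusted p 0.0926).

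Transcripts that E2F controls were examined as the output of the family. Of 38 tested G1 to S targets, 3 were lower, 2 higher and 33 did not pass, with a median log2 fold change of -0.02. The share of lower genes, 3 of 38, stands beside 9.74% of all tested genes. Gins4, a subunit of the replicative helicase, had 106 and 122 CPM in shControl against 72.0 and 69.7 CPM in shLmna, a log2 fold change of -0.69 (adjusted p 0.00887). Rfc4, a subunit of the clamp loader, had a log2 fold change of -1.85 (adjusted p 0.0138), with 162 and 180 counts against 57 and 23. Pcna, the clamp, had one of -0.81. The counted ends of Gins4, Rfc4 and Pcna had GC contents of 47.1%, 42.2% and 37.9%, and 23.5% of tested genes between 36% and 38% were lower. Rpa1, which coats single-stranded DNA, had 304 and 251 CPM against 428 and 420 CPM, a log2 fold change of 0.61 (adjusted p 0.0132). Cdc25a, the phosphatase that activates CDK2, had one of 0.49 (adjusted p 0.0251). Ccne1 (cyclin E1), the classical E2F1 target, had 82.1 and 103 CPM against 96.9 and 86.6 CPM. Mcm3, Mcm4, Cdt1 and Rpa2, named after their values were seen, had log2 fold changes between -0.01 and 0.03. Other targets that did not pass lay further from 0, such as Mcm5 (-0.39) and Cdc45 (0.50). Without shLmna 1 or without shLmna 2, 1 gene of the list passed.

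Of 28 DREAM targets of G2 and mitosis, all were tested, and 3 were lower, 0 higher and 25 did not pass, with a median of -0.05. The 3 lower genes of 28 are close to the 9.74% of all tested genes. Bub1, a checkpoint kinase, had 62 and 88 counts in shControl against 0 and 3 in shLmna (edgeR adjusted p 0.000159). Bub1 entered the test through its shControl counts alone, so it could pass only as lower. With both shLmna libraries set to the floor of 3 counts it was 21.3-fold lower, which is not a lower limit. Mad2l1, the checkpoint protein MAD2, had 72.5 and 98.3 CPM against 46.3 and 39.0 CPM, a log2 fold change of -1.01 (adjusted p 0.00576). Nusap1, a microtubule-bundling protein, had 133 and 173 counts against 9 and 73, a log2 fold change of -1.80 (adjusted p 0.0274) that differed greatly between the shLmna libraries. The counted ends of Bub1, Mad2l1 and Nusap1 had GC contents of 37.5%, 37.5% and 40.7%. Of all tested genes between 36% and 38% GC, 23.5% were lower, against 6.53% between 40% and 42%. Mki67, Plk1, Aurkb and Ccnb1, named after their values were seen, had log2 fold changes between -0.06 and -0.01. Others that did not pass lay further from 0, such as Ttk (-0.59) and Aurka (0.28).

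**Figure D5:**
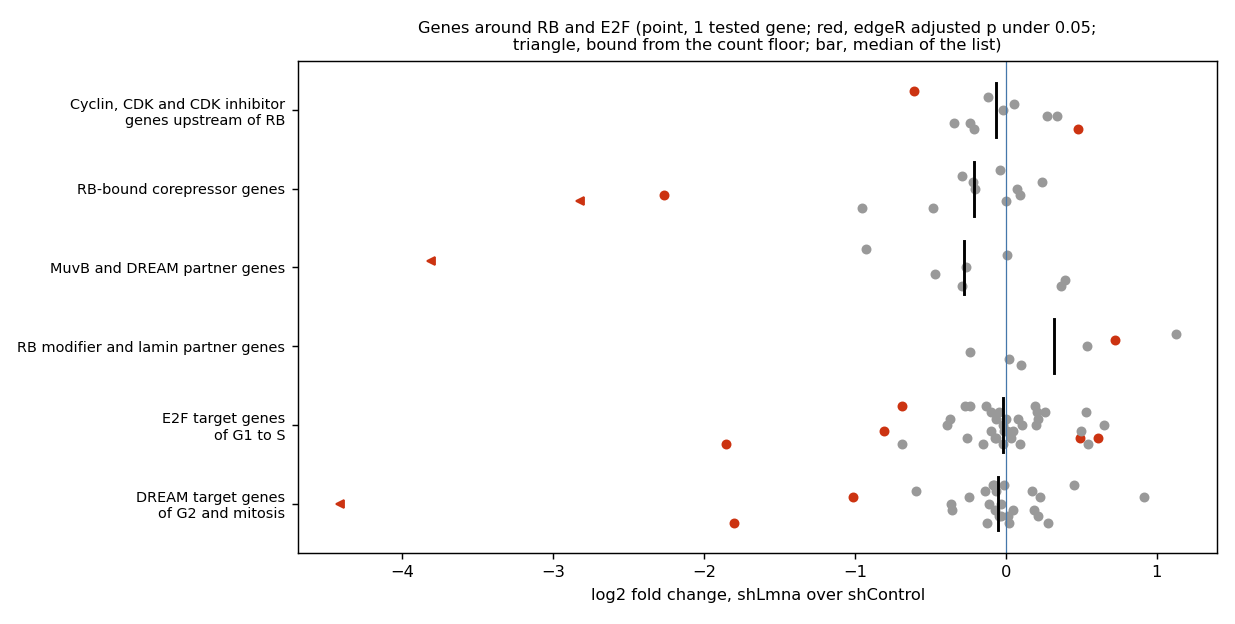
Log2 fold change of shLmna over shControl (x axis) for each tested gene of the 6 lists around RB and E2F (rows). Red marks an adjusted p under 0.05, and a bar marks the median of each list. Triangles, labelled as bounds, are genes drawn with both shLmna libraries set to the count floor. They are not lower limits, since counts above 0 were seen. Medians of the E2F and DREAM target lists are -0.02 and -0.05, with single red points on both sides for the G1 to S targets and on the lower side alone for G2 and mitosis.

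The plot of pathway lists sets these medians side by side. They ranged from -0.28 for MuvB and DREAM partners to 0.32 for RB modifiers and the lamin partner, against -0.00107 over all tested genes. Setting genes near 0 to the count floor left each median as it was.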

How the data were processed

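RNA of B16F10 cells (shControl, n = 2; shLmna, n = 2) was profiled by bulk MARS-seq, and groups and replicate numbers were taken from sample titles. According to the methods and the submitters' processing notes, the authors trimmed reads with Cutadapt, aligned them to mm10 with STAR 2.4.2a and used HTSeq to count the last 1000 bases of RefSeq genes and 100 bases downstream, after marking duplicate molecular identifiers. The authors deposited raw counts per gene symbol, which entered the main test. A deposited signal table holds counts divided by DESeq2 size factors, with p-values of the authors that were not used, and a deposited table of log2 values was batch-corrected with ComBat, its batches not named. In each library 100% of the signal values were whole multiples of 1 step, within 0.1 of a step, and the matrix held 1.08 to 1.09 times the recovered reads. In shControl 1 the step is close to 1, so there this check does not show that reads were recovered.

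Counts were tested with edgeR 4.0.16 in R 4.3.3 (quasi-likelihood F test, two-sided, TMM, filterByExpr, group as the one term), adjusted over 9150 genes by Benjamini-Hochberg. SE came from the F statistic. The biological coefficient of variation was 0.1265. Replicates differed by more than sampling noise (chi-square per degree of freedom 6.96 in shControl and 3.91 in shLmna). The script was tested on simulated counts. Positions and GC content came from GENCODE M21 (GRCm38), 1 transcript per gene. Alternatives were other scalings, no filter, DESeq2 1.42.0, a replicate block, leaving out libraries, recovered reads, limma 3.58.1 on log2 values and a GC offset (loess, span 0.4). Named are all members, Lmna, E2f6 to E2f8, cyclin D genes with Cdk4 and Cdk6, and up to 4 lower and 4 higher genes per list with the smallest p among those passing. Other genes are named to describe a list and were chosen after their values were seen. Members and lists were chosen with earlier results of these data known.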

Additional observations from a re-analysis of the deposited data

How the results depend on the processing

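With 2 libraries per group and 35 control counts for Rb1, differences of low genes are limited by depth. Lmna, E2f1 and Tfdp1 kept their direction and their side of the threshold under all 13 settings, with log2 fold changes of -2.74 to -1.54 for Lmna and -1.21 to -0.47 for Tfdp1. The count of lower members was 3 to 5 under the settings that kept all libraries and 1 to 4 with 1 library left out, and 0 members were higher under any setting.

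Leaving out 1 library at a time gave adjusted p of 5.18e-05 to 0.0697 for Rb1, where the fit without shControl 2 could not include it, and log2 fold changes of -1.65 to -0.78 for Rbl1, -0.23 to 0.14 for Rbl2, -0.031 to 0.20 for E2f2, -0.055 to 0.49 for E2f3, -1.18 to -0.74 for E2f5 and -0.057 to 0.52 for Tfdp2. It gave 387 to 744 lower and 60 to 232 higher calls among all genes, against 538 and 161, and counts of passing genes of 0 to 1 for the other E2F genes, 0 to 5 for cyclins and CDKs, 0 to 2 for corepressors, 1 to 2 for MuvB, 0 to 3 for RB modifiers and 1 to 7 for G1 to S targets.

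Other changed values were, for the GC offset, -0.84 for Rbl1; for library totals, 0.0023 for Rbl2; for DESeq2, -0.97 for E2f5 with an adjusted p of 0.149, 66 higher calls, 1 corepressor and 0 RB modifiers; for the batch-corrected values, -0.10 for E2f4 with an adjusted p of 0.0429, 28 lower and 2 higher calls, 4 cyclins and CDKs, 4 corepressors, 3 MuvB genes, 2 RB modifiers, 13 G1 to S targets and 6 mitotic targets; and without the filter, 3 MuvB genes, 3 RB modifiers and 8 G1 to S targets. The batch-corrected differences are smaller in size, and the cause of these changes was not tested. Replicate numbers were not used to pair the samples in the main test, and whether same-numbered libraries were prepared together is not stated. Their deviations from group means correlated at 0.0129 across genes. With 2 libraries per group this value cannot decide the question. With a replicate block the same 4 members passed, 605 lower and 209 higher calls were made, and 3 MuvB genes and 2 RB modifiers passed. This fit has fewer residual degrees of freedom, yet its edgeR adjusted p for Lmna was 5.30e-40, against 7.93e-06 without the block. For Tfdp1 it was 6.67e-10 against 0.000958. Some fits with 1 library left out also gave smaller p-values than the fit of all libraries. Passing in any of these fits is therefore no measure of stability.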

Other observations

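Some genes of the pathway had very few counts in these libraries. Cdk1, the mitotic kinase, had 5 and 8 counts in the shControl libraries, and 9 and 13 in those of shLmna. Rbbp4, shared by MuvB and the histone deacetylase complexes, had 13 and 17 against 7 and 15, while its relative Rbbp7 had 147 and 306 against 141 and 251. Kdm5a, an RB-binding demethylase, had 3 to 6 counts in every library, and Ccne2 had 1 and 15 counts in shControl, whereas both shLmna libraries held 0.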
